A study of Rattus norvegicus with 3 samples.

Results

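The genes described here encode the rods and cables of the muscle sarcomere: the skeletal and cardiac alpha-actins (Acta1, Actc1), the tropomyosins Tpm1, Tpm2 and Tpm3, and the slow and fast myosin-binding protein C (Mybpc1, Mybpc2). Probes were taken by gene name, through the RefSeq accession that the array gives for each one. Of these 7 genes 6 had a matched probe, among 15168 genes with one, and together they had 8 of 30367 probes. No probe's accession matched Mybpc2, which was not analysed here. Tpm1 and Tpm3 each had 2 probes, named for different transcripts, and every probe was printed as 2 spots per array.

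Muscle RNA of male Wistar Honnover rats (the labels' spelling), 12 weeks of age, was read on 3 one-colour (Cy3) Agilent arrays. One array held the normal soleus, a slow postural calf muscle. Its title reads only Post, so its group rests on the source name in its labels. Another held the soleus 28 days after about 5 mm of the left sciatic nerve was cut out, and the last the normal plantaris, a faster neighbour. Untreated rats supplied both normal muscles, and no other treatment, allele or transgene is named. There is 1 array per group and the number of animals behind it is not given, so no p-value or spread between animals can be stated.

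Actin polymerises into the thin filament, and tropomyosin lies along it as a coiled coil that covers or frees the sites where myosin binds. Tpm1 is the main alpha-tropomyosin of fast fibres, Tpm3 that of slow fibres, and Tpm2 encodes the beta chain, which pairs with either. Acta1 is the actin of adult skeletal fibres, whereas Actc1 is that of the heart and of developing skeletal muscle. Myosin-binding protein C cross-links the thick filament and tunes how myosin heads reach actin, with Mybpc1 as its slow form. All 3 tropomyosin genes are spliced into several muscle and non-muscle forms.

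The DNA before the starts of 5 of these genes is shown because Acta1 and Tpm2 were lower together after denervation while Actc1 and Tpm1 were not, and because Tpm3 has separate starts and 2 probes. Mybpc1 was also lower after denervation, and its sequence is not shown, though its matches are counted below. Which start each probe's transcript uses was not paired here, and how these sequences relate to the levels was not tested. Each line gives the 250 bases before the start, 5′ to 3′ on the gene's strand, from RefSeq on build GRCr8. All 7 genes had an entry there. Capitals mark matches to the CArG box (the site of serum response factor), the MEF2 site, the MCAT letters CATTCC or the TATA letters TATAAA, on either strand. MEF2 and TATA letters can overlap. Tpm3 has 3 starts listed, and the one closest to its neighbour is left out.

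Acta1 (chr19:68784195-68784444, minus strand): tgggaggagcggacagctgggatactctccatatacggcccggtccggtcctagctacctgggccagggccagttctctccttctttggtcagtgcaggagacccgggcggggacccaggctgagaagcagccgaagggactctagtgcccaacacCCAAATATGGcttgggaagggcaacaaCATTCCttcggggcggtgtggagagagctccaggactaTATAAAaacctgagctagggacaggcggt
Actc1 (chr3:121271828-121272077, minus strand): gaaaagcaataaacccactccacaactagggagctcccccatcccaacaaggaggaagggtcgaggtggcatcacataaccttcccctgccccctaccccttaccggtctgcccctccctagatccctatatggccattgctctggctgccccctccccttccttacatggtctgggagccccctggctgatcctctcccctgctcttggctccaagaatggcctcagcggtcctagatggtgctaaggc
Tpm1 (chr8:76543416-76543665, minus strand): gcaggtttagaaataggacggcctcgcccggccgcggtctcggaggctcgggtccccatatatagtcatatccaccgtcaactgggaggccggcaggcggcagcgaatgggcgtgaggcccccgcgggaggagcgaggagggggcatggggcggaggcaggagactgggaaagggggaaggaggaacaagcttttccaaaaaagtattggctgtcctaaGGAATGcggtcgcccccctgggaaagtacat
Tpm2 (chr5:62575727-62575976, minus strand): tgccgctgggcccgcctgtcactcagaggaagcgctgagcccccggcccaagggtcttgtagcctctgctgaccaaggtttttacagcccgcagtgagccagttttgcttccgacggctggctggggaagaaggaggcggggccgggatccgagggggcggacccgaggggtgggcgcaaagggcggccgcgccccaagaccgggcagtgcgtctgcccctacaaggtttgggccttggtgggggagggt
Tpm3, first start (chr2:177814633-177814882, plus strand): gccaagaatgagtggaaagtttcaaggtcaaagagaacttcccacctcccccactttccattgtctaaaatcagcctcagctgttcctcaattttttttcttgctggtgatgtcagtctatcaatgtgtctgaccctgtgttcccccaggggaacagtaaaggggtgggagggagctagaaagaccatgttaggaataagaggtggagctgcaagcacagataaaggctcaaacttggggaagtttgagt
Tpm3, second start (chr2:177821115-177821364, plus strand): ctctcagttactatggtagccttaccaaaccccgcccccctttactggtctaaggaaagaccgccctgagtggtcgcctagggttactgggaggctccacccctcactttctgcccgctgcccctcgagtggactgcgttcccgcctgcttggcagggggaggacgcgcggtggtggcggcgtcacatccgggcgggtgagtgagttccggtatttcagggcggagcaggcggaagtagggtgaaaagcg

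The Acta1 window held 1 CArG box (CCAAATATGG, at -94 to -85 from the start), 1 MCAT match and 1 TATA match. A CArG box was present in 1.5% of 33469 such windows, an MCAT match in 12.1% and a TATA match in 12.9%. Tpm1 and Mybpc2 each had 1 MCAT match, and Mybpc1 had 1 TATA match. The windows of Actc1, Tpm2 and Tpm3 held no exact match to these 4 motifs, and no window held a MEF2 match, which 2.96% of all windows had. Matches had to fit the pattern without a mismatch, CCWWWWWWGG (W is A or T) for the CArG box. Imperfect sites were not counted, so a window without a match may still hold them. The general E-box letters CANNTG, not capitalised, occurred 4 times before Mybpc1 and once each before Acta1, Tpm1, Mybpc2 and the first Tpm3 start, against 65.5% of all windows with at least 1. These matches are letters in a sequence, not measured binding sites.

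Each array's signals are given as multiples of the 75th percentile of its 58717 non-control spots, or as log2 of that multiple. Differences between arrays are log2 values, where 1 stands for 2-fold. The ± beside a difference is the signal error that the scanner software assigns, not a spread measured between spots. For Acta1 that error was 0.144 on each array. Across all probes well above background, repeat spots had a pooled standard deviation of 0.48 in normal soleus. It was 0.35 in the denervated soleus and 0.29 in plantaris. A gene counted as apart at 2-fold or more, which is a rule of size and not a test. Signal well above background was seen for 64.2% to 67.0% of probes. None of the spots was saturated, and the brightest member spots reached 53.3% of the scanner's limit for Tpm1 and 49.3% for Acta1. The normal soleus and plantaris arrays lay on 1 slide and were scanned together. The denervated array had a slide and a scan of its own, and these cannot be told apart from the effect of denervation. Levels are not compared between genes, because each probe has its own brightness. The summed levels of marker lists below are compared between arrays only, and bright probes weigh most in them.

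The muscle labels were first set against fibre genes. In plantaris the fast myosins Myh4 and Myh1 stood 7.22 and 7.37 above normal soleus and the slow myosin Myh7 stood at -2.62. Fibre type genes differed in the denervated soleus too. There the fast-fibre genes Pvalb (6.02), Actn3 (5.15) and Myh1 (4.43) were above normal soleus and Myh7 stood at -1.5. Not all fast-fibre genes did so, with Myh2 at -0.52 and Tnni2 at -0.14. Of the 10 fibre type genes listed, 5 were higher and 2 lower, against 8.73% and 13.4% of all genes (median 0.58). The part of these differences in the denervated Tpm1 and Tpm3 values was not tested. All 6 probed muscle fibre markers, among them creatine kinase Ckm and myoglobin Mb, were well above background on all 3 arrays. In the denervated soleus these 6 markers had a median difference of -0.78 from normal soleus, from -1.48 for Ckm to -0.18 for Mb. On the same array the 4 measured fat cell markers, such as Adipoq, were all higher, where 8.73% of all genes were (median 2.75). The summed level of the 5 probed ones was 60.8 against 10.6 in normal soleus and 9.08 in plantaris, with Lep not above background on any array. All 8 measured fibroblast markers stood above normal soleus after denervation (median 0.85, from 0.53 for Lum to 2.77 for Comp). By the 2-fold rule 2 of the 8 were higher, where 8.73% of all genes were, and 6 lay within 2-fold. In plantaris the fibroblast markers were mixed (median 0.35), from -0.43 for Lum to 1.59 for Col1a1. Their summed level (9 probed) was 371 in the denervated soleus, 178 in normal soleus and 356 in plantaris, with Tcf21 not above background on any array. The part of these cells in the results below was not tested. In such bulk samples, fewer muscle fibres and less of an RNA per fibre cannot be told apart.

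The actins. Acta1, the bulk actin of adult fibres, read 435 and 439 times the reference on its 2 spots of normal soleus, 524 and 517 in plantaris, and 82.1 and 79.0 in the denervated soleus. Both normal muscles were high and close to each other, and the denervated muscle was far below both. It was 5.43-fold lower than normal soleus (-2.44 ± 0.20) and 6.47-fold lower than plantaris (-2.69 ± 0.20). The normal muscles differed by 0.25 ± 0.20, a difference that turned to -0.22 under quantile normalization.

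Actc1, the cardiac and developmental actin, followed another order. Its spots read 42.5 and 43.3 in normal soleus, 38.3 and 39.8 in the denervated soleus, and 6.22 and 6.52 in plantaris. The 2 soleus arrays were close together and plantaris was low. Plantaris stood 6.74-fold below normal soleus (-2.75 ± 0.20), with 62 of 11015 genes further below, whereas the denervated soleus differed from the normal one by -0.14 ± 0.20. That last value turned to 0.32 under quantile normalization, and it was positive in 3 of 11 other settings.

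A single scaling factor per array moves both actins alike, so the gap between them does not depend on where the arrays are centred. Relative to Acta1, Actc1 was 4.94-fold higher in the denervated than in the normal soleus (2.31 ± 0.29) and 8.02-fold lower in plantaris (-3.0 ± 0.29). Between the denervated soleus and plantaris the actin gap reached 39.7-fold (5.31 ± 0.29). The Actc1 signal did not follow that of Acta1 in any of these comparisons. The 2 proteins are nearly identical, and probe sequences were not used here. Whether either probe also reads the other's RNA was not tested.

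**Figure D1:**
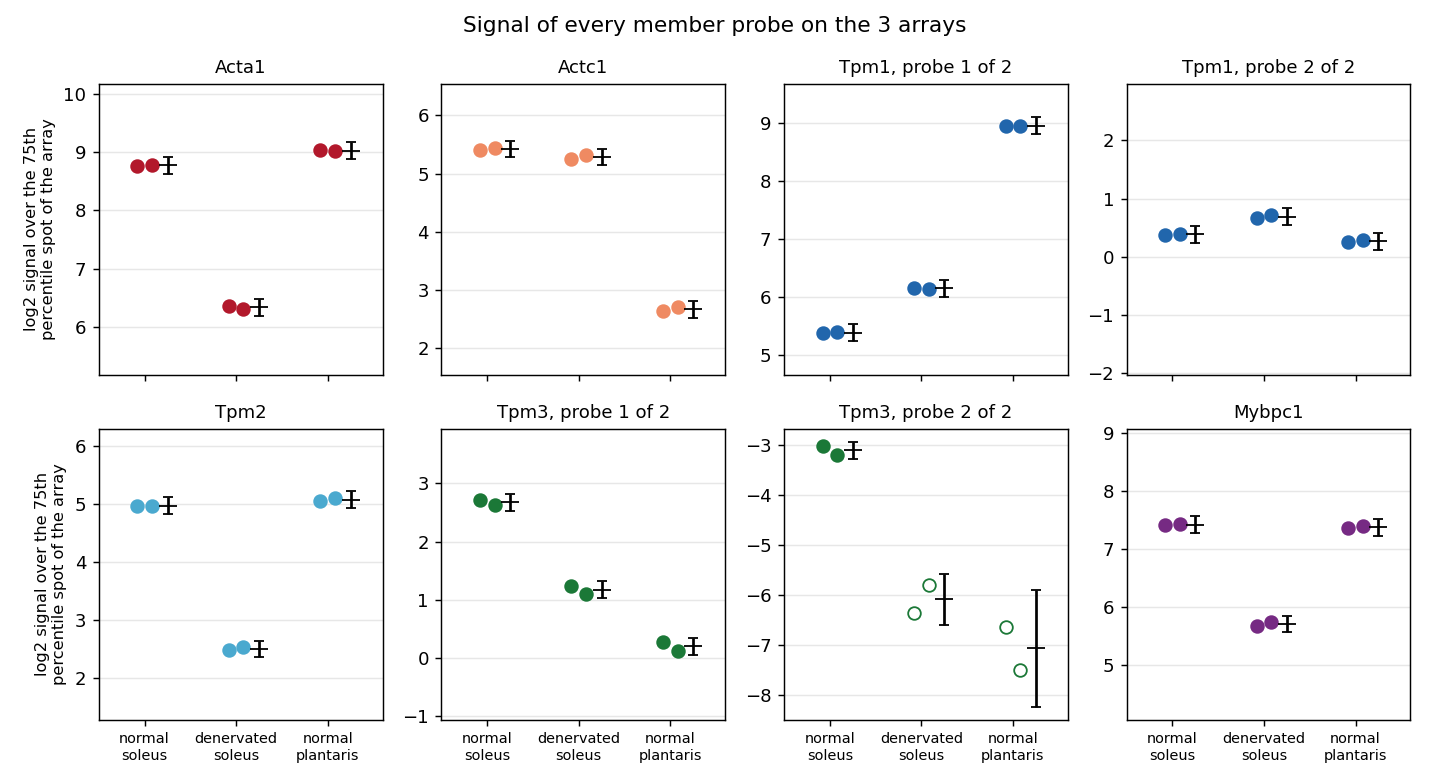
Log2 signal over the array's 75th percentile spot (vertical axis, each panel at least 5 log2 units tall) for each member probe in normal soleus, denervated soleus and normal plantaris. Points are the 2 spots, open where the probe was not well above background, and the dash with bars is their mean with the scanner error. Acta1, Tpm2 and Mybpc1 are low in the denervated soleus only, Actc1 is low in plantaris, Tpm1 probe 1 is high in plantaris, and Tpm3 is highest in normal soleus.

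The tropomyosins. The brighter Tpm1 probe, named for transcript NM_001034068, had the widest range among member probes measured on all 3 arrays. It read 41.6 and 42.3 in normal soleus, 71.6 and 70.5 in the denervated soleus, and 494 and 492 in plantaris. The fast muscle thus stood apart from both soleus arrays, and the denervated soleus lay slightly above the normal one. Plantaris was 11.8-fold above normal soleus (3.55 ± 0.20), and only 24 of 11015 genes had a larger difference in that direction. Denervated over normal soleus was 1.69-fold (0.76 ± 0.20). It stayed under 2-fold in 8 of 11 other settings and passed it in 3, at up to 1.26 under quantile normalization.

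The other Tpm1 probe, named for transcript NM_001034069, was nearly flat. It read 1.30 and 1.31 in normal soleus, 1.58 and 1.64 in the denervated soleus and 1.19 and 1.21 in plantaris. All 3 arrays were close, with plantaris at -0.12 ± 0.20 and the denervated soleus at 0.30 ± 0.20 from normal soleus. The brighter probe therefore differed from the other by 12.8-fold more between plantaris and normal soleus (3.68 ± 0.29), a gap that no single factor per array can alter. Among 1550 genes with at least 2 probes well above background on both arrays, the median gap was 0.18, 5.16% had a gap of 1 or more, and 0 had a gap larger than that of Tpm1. Between denervated and normal soleus the Tpm1 gap was 0.46 ± 0.29, and 27.9% of 1568 genes had a larger one. The exons that the probes cover were not known here, and nor were the RNA forms behind them.

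**Figure D2:**
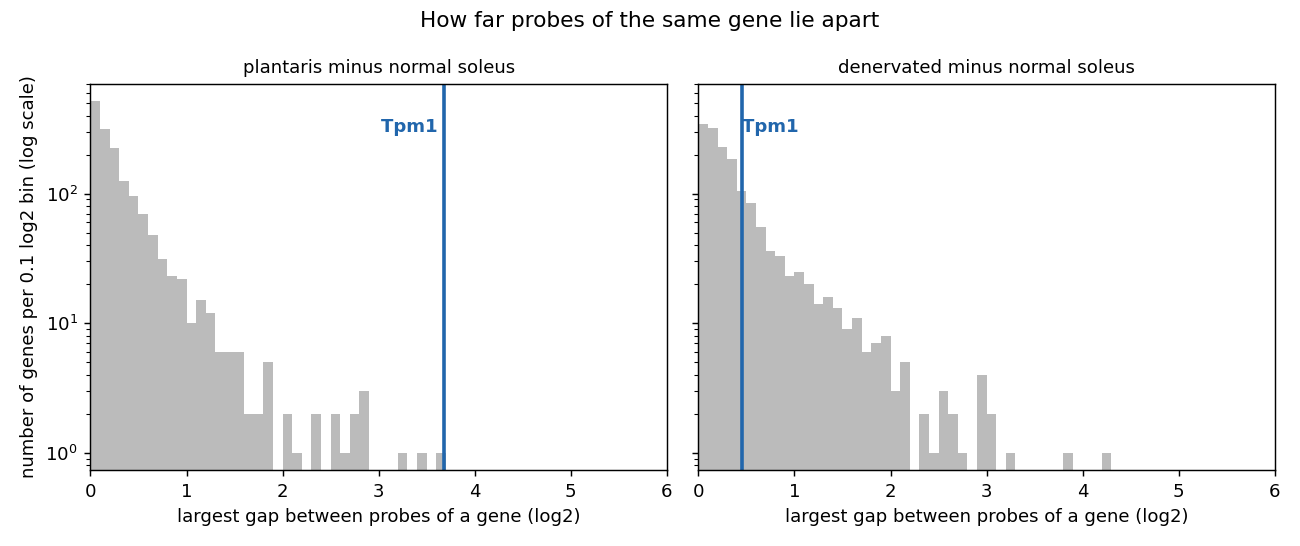
Number of genes (log scale) by the largest gap, in log2 units, between the differences read by probes of the same gene, for genes with 2 or more probes well above background on both arrays. The Tpm1 gap (line) is 3.68 between plantaris and normal soleus, above all other genes, and 0.46 between denervated and normal soleus, inside the bulk.

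Tpm1 and Tpm2 also serve smooth muscle, so its markers are given beside them. Of 8 such markers measured between plantaris and normal soleus 2 were higher and 0 lower, against 5.71% and 6.11% of all genes (median -0.41). The higher ones were Lmod1, as a bound of 4.26 ± 0.73, and Mustn1 at 1.44. After denervation 1 of 7 was higher and 2 were lower, against 8.73% and 13.4% of all genes (median -0.82). The defining genes Myh11, Acta2 and Tagln stood at -0.48, -0.16 and -0.34 in plantaris and at -0.56, -0.82 and -0.53 in the denervated soleus, each against normal soleus. The summed level of the 8 markers was 35.8 in normal soleus, 52.5 in the denervated soleus and 59.8 in plantaris. Mustn1 alone made up 17.6, 42.4 and 47.8 of these sums and stood at 1.26 after denervation. The 7 markers without it summed to 18.2 in normal soleus, 10.2 in the denervated soleus and 12.0 in plantaris, the opposite direction. Lmod1 was not above background in either soleus, nor Cnn1 in the denervated one. The part of smooth muscle in the tropomyosin values was not tested.

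Tpm2, the beta-tropomyosin, read 31.1 and 31.3 in normal soleus, 33.1 and 34.1 in plantaris, and 5.57 and 5.77 in the denervated soleus. The normal muscles were within the error of each other (0.11 ± 0.20, with a sign that turned in 3 of 11 other settings, to -0.06 at the lowest), and the denervated muscle was low. It stood 5.50-fold below normal soleus (-2.46 ± 0.20) and 5.92-fold below plantaris (-2.57 ± 0.20). Of 11318 genes 195 were further below normal soleus. The ratio of Tpm2 to Acta1 signal moved by -0.02 ± 0.29 between the soleus arrays and by -0.15 ± 0.29 between the normal muscles. Both genes were thus lower in the denervated soleus by factors that differed by less than the scanner error.

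Tpm3, the slow alpha-tropomyosin, read 6.57 and 6.22 in normal soleus, 2.36 and 2.16 in the denervated soleus, and 1.21 and 1.09 in plantaris on the probe named for transcript NM_173111. The levels ran from normal soleus through the denervated soleus to plantaris, each step wider than the gap between spots. Plantaris was 5.56-fold below normal soleus (-2.47 ± 0.20), and the denervated soleus was 2.84-fold below it (-1.5 ± 0.20). The denervated soleus remained above plantaris by 0.97 ± 0.20, just short of 2-fold, and reached 1.32 with the authors' scaling.

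A fainter Tpm3 probe, named for transcript NM_057208, was well above background in normal soleus alone. There it read 0.124 and 0.109, against 0.0122 and 0.0179 in the denervated soleus and 0.0100 and 0.00558 in plantaris. Against the faintest signal that counted as measured on the plantaris array, normal soleus was at least 10.4-fold higher, and against the denervated array's own signal at least 7.85-fold. Both Tpm3 probes were thus highest in normal soleus.

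The ratios between tropomyosin probes differed between muscles. Relative to Tpm3, Tpm1 on its brighter probe was 65.3-fold higher in plantaris than in normal soleus (6.03 ± 0.29). It was 4.80-fold higher in the denervated than in the normal soleus (2.26 ± 0.29). Relative to Tpm2, Tpm1 was 10.9-fold higher in plantaris and 9.31-fold higher in the denervated soleus, the first with Tpm2 near its normal soleus level and the second with Tpm2 low. Both comparisons share the normal soleus array.

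Myosin-binding protein C. Mybpc1 read 169 and 172 in normal soleus, 164 and 167 in plantaris, and 51.2 and 53.5 in the denervated soleus. This slow-form gene was level between the slow and the fast muscle (-0.04 ± 0.20, ranging from -0.64 under quantile normalization to 0.02 when centred on the median spot). The denervated soleus was 3.26-fold below the normal one (-1.71 ± 0.20) and 3.17-fold below plantaris (-1.66 ± 0.20, or -0.75 under quantile normalization, which is under 2-fold). Relative to Acta1, it was 1.66-fold higher in the denervated than in the normal soleus (0.74 ± 0.29). Of its relatives, Mybph, a shorter protein of the thick filament, was higher than normal soleus by 2.17 ± 0.20 in plantaris and by 1.79 ± 0.20 after denervation. The heart form Mybpc3 was not well above background on any array, and Mybphl stood at -0.43 ± 0.43 and -0.11 ± 0.38.

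Counted together, 1 of the 6 measured members (Tpm1) was at least 2-fold higher in plantaris than in normal soleus, where 5.71% of 11015 genes were, and 2 (Actc1, Tpm3) were lower, where 6.11% were (11.8% in either direction). The members' median was 0.03, against 0.02 for all genes. In the denervated against the normal soleus 4 members (Acta1, Tpm2, Tpm3, Mybpc1) were lower, where 13.4% of 11318 genes were, and 0 were higher, where 8.73% were (22.1% in either direction). Their median was -1.60, against 0.02 for all genes. Against plantaris, the denervated soleus had 4 members lower (Acta1, Tpm1, Tpm2, Mybpc1), where 16.7% of 11371 genes were, and 1 higher (Actc1), where 12.0% were (28.7% in either direction), with a median of -2.11 against 0.01 for all genes. The 3 comparisons reuse the same 3 arrays.

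With the authors' deposited values the balance of all genes shifted, from 988 higher and 1518 lower to 1568 higher and 1107 lower after denervation, and from 1363 and 1899 to 2456 and 1213 against plantaris, where quantile normalization gave 1792 and 1522. The median of all genes on those values was 0.26 after denervation, 0.36 against plantaris and -0.08 between the normal muscles. Acta1 (-2.20), Tpm2 (-2.22), Mybpc1 (-1.46) and Tpm3 (-1.26) were still lower after denervation, and Tpm1 reached the threshold at 1.0. Brightness moved with the difference too. The 200 genes nearest in mean level to Acta1, Actc1, Tpm1 and Mybpc1 had medians from -0.34 to -0.25 between the soleus arrays, against -0.16 for those nearest Tpm2 and -0.00067 for those nearest Tpm3. Between the denervated soleus and plantaris these medians ran from -0.47 for Acta1 and Tpm1 to -0.017 for Tpm3. Centring each member on its nearest genes was a setting added after seeing the data. It gave -2.19 for Acta1, -2.3 for Tpm2, -1.43 for Mybpc1 and -1.5 for Tpm3 after denervation. There Actc1 turned to 0.196 and Tpm1 passed 2-fold at 1.1. Against plantaris this setting kept 1 member higher and 4 lower. Why brightness moved with the difference was not tested.

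**Figure D3:**
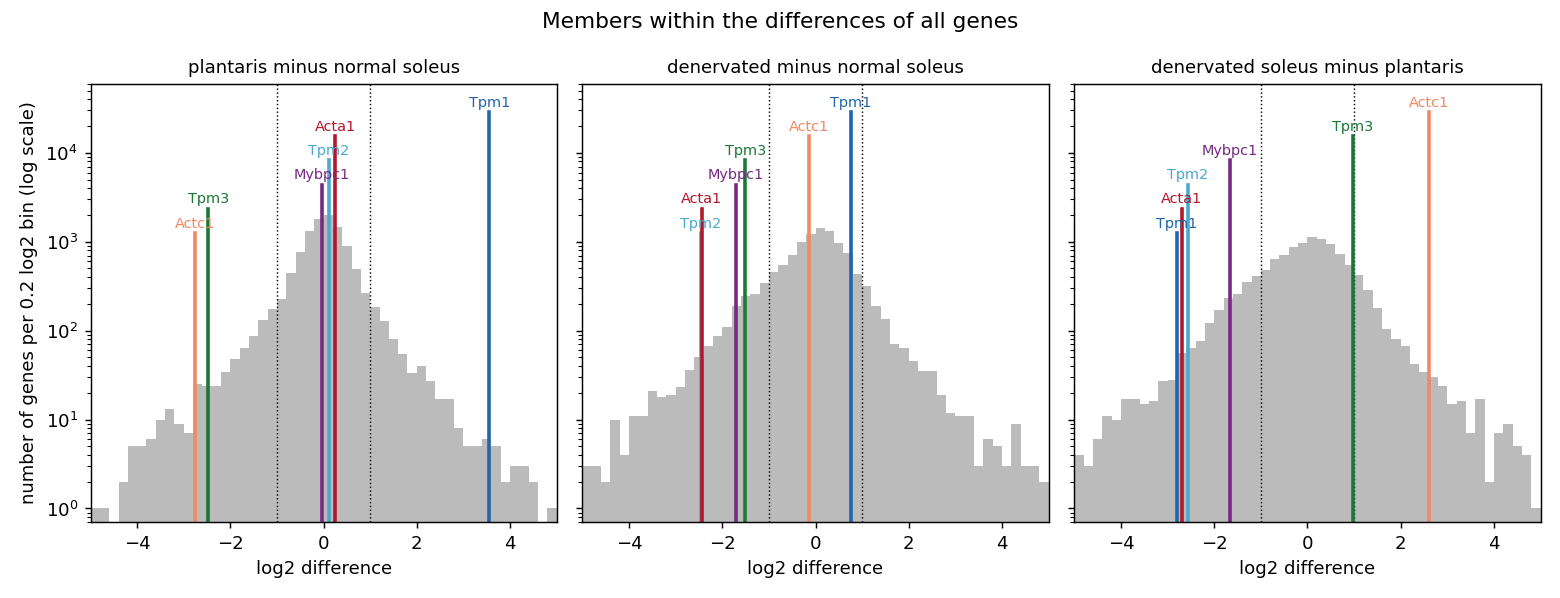
Number of genes per 0.2 log2 bin (vertical, log scale) by log2 difference between arrays (horizontal, shown from -5 to 5) in the 3 comparisons. Dotted lines mark 2-fold and coloured lines the 6 members by their brighter probe. Actc1 (-2.75), Tpm3 (-2.47) and Tpm1 (3.55) lie in the tails between the normal muscles, and Acta1 (-2.44) and Tpm2 (-2.46) in the lower tail after denervation.

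The proteins around the thin filament were read from lists chosen with earlier results of these data known. Of 5 other actins and tropomyosins, all were measured. Between plantaris and normal soleus 1 was lower, the non-muscle tropomyosin Tpm4 (-1.0), where 6.11% of all genes were. After denervation 1 was lower, the smooth muscle actin Actg2 (-1.38), where 13.4% of all genes were. The medians of the 5 were -0.57 and -0.65. The cytoskeletal actins Actb and Actg1 stood at -0.64 and -0.30 in plantaris and at -0.23 and -0.63 after denervation, so neither passed 2-fold.

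Of 18 probed genes for thin filament assembly, length and ends, 3 were higher in plantaris, where 5.71% of all genes were, and 1 lower, where 6.11% were (median -0.16). Lmod2, a nucleator that lengthens thin filaments, was the lower one (-1.89), and the pointed-end cap Tmod1 was higher (1.88), with the actin-binding Xirp2 at the threshold (1.0) and Lmod1 as a bound. After denervation 1 of 17 was higher and 3 lower (median -0.23), against 8.73% and 13.4% of all genes. These counts lie near those shares. Tmod1 was again above normal soleus (1.98), and the monomer-binding Twf2 (-2.27), the filament-anchoring Nrap (-1.38) and Lmod2 (-1.15) were below it. The ligase adaptor Klhl41 (0.07) and its relative Klhl40 (-0.52) lay within 2-fold.

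Of 9 genes of the serum response factor pathway, whose factor binds CArG boxes, 5 were lower after denervation, where 13.4% of all genes were, and 0 were higher, where 8.73% were. The median, -1.21, is the value of Cnn1, which was not above background on the denervated array and so is a bound. The LIM protein Fhl2 stood at -2.57, the actin-binding Abra at -2.28, the cofactor Myocd at -2.21 ± 0.38 and Fhl1 at -1.56, while Srf itself was at -0.87 ± 0.20. In plantaris 1 was higher and 2 lower (median -0.34), against 5.71% and 6.11% of all genes, with Abra at 1.63 and Fhl2 at -4.63. How these genes relate to Acta1 was not tested.

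The troponins, which sit on tropomyosin, were all measured. In plantaris the 3 fast forms Tnnt3 (3.11), Tnni2 (2.25) and Tnnc2 (1.39) were higher and the 5 slow and cardiac forms lower. Among all genes 5.71% were higher and 6.11% lower. Of the 5 lower forms, Tnni1 stood at -3.19, Tnnc1 at -2.74, Tnnt2 at -1.92 and Tnnt1 at -1.81. Tnni3, not above background in plantaris, had a bound of -3.12. After denervation the fast forms lay between -0.14 and 0.41. There Tnni3 (-1.88), Tnni1 (-1.20) and Tnnc1 (-1.06) were lower and the cardiac troponin T gene Tnnt2 was higher (1.80). Among all genes 13.4% were lower there and 8.73% higher. Of 5 probed thick filament and M-band genes, 1 was higher in plantaris and 0 lower (median -0.01), against 5.71% and 6.11% of all genes. After denervation 0 were higher and 2 lower (median -0.56), against 8.73% and 13.4% of all genes. Myom2, an M-band linker of fast fibres, was higher in plantaris (1.80) and lower after denervation (-1.68). Smyd2 (-0.56), Myom1 (-0.41) and Hsp90aa1 (0.19) lay within 2-fold after denervation. The methyltransferase gene Smyd1 was at -0.01 in plantaris and -1.79 after denervation.

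**Figure D4:**
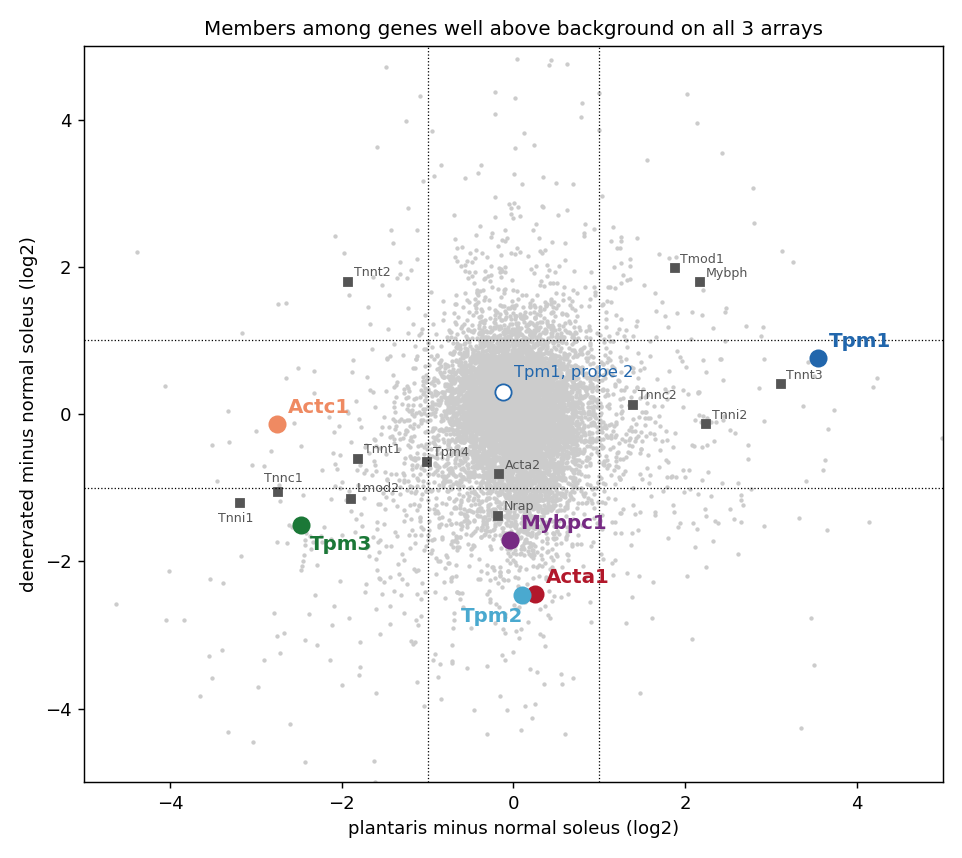
Each grey point is 1 of 9855 genes well above background on all 3 arrays, placed by its log2 difference of plantaris from normal soleus (horizontal) and of denervated from normal soleus (vertical), both axes from -5 to 5. Coloured circles are the 6 members, the open circle is the second Tpm1 probe, squares are troponins and other filament genes, and dotted lines mark 2-fold. Acta1 and Tpm2 nearly coincide, and Tpm1 lies far right of its second probe.

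How common each pattern was is given by the straight-line distance between genes in this plane, in log2 units. Other members were left out of these counts and of the nearest genes, although Acta1 and Tpm2 nearly coincide. Among the 9855 genes of the plane, 321 lay within 0.5 of Mybpc1, against 65 for Tpm2, 58 for Acta1, 20 for Tpm3, 4 for Actc1 and 2 for Tpm1. The nearest genes to Tpm1 were Tlcd4 (0.14), Cdh15 (0.25) and Tnnt3 (0.56). Those nearest to Tpm3 were Slc38a1 (0.11), Myl4 (0.13) and Myh7 (0.14), and those nearest to Actc1 were Mycbpap (0.20), Ceacam16 (0.26) and Ampd3 (0.37). Acta1 lay nearest to Or8b37, Bsn and Dkkl1, Tpm2 to Dkkl1, Ocln and Car1, and Mybpc1 to Lin28a, Smox and Tubb4a. With 3 arrays such a likeness is a description only.

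For the 3 members apart between the normal muscles and the 4 apart between the soleus arrays, the difference kept its direction and stayed past 2-fold under all other settings on the same probe. Between plantaris and normal soleus Tpm1 ranged from 3.02 to 3.62, Actc1 from -2.86 to -2.69 and Tpm3 from -2.58 to -2.38. After denervation Acta1 ranged from -2.46 to -1.90, Tpm2 from -2.47 to -2.20, Mybpc1 from -1.73 to -1.39 and Tpm3 from -1.52 to -1.26.

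**Figure D5:**
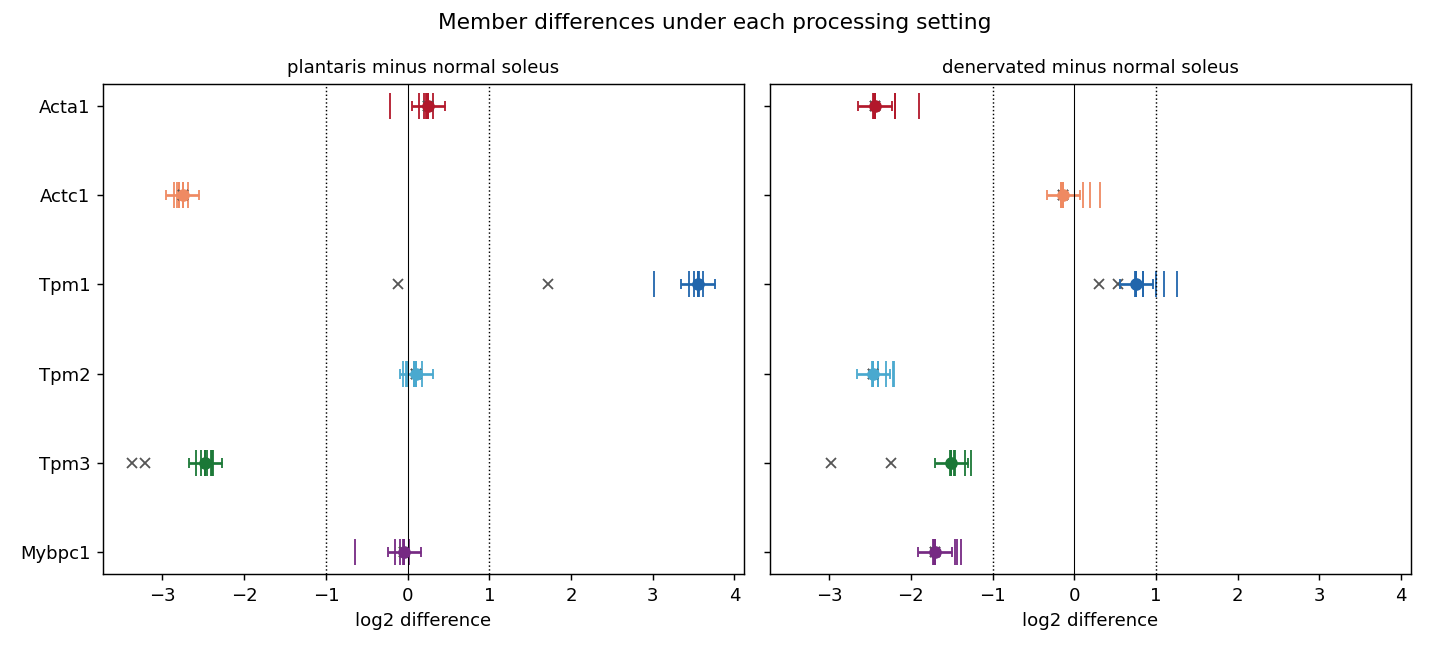
Log2 difference (horizontal) of each member between plantaris and normal soleus (left) and between denervated and normal soleus (right). Circles with bars are the reported value and scanner error, ticks are other settings on the same probe, crosses are settings that use another probe or the mean of probes, and dotted lines mark 2-fold. Crosses of Tpm1 lie far from its circle on the left, and those of Tpm3 lie below its circle in both panels.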

How the data were processed

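Per the labels, total RNA of muscle was labelled with Cy3. Per the file headers, spots were quantified by Agilent Feature Extraction 10.10.1.1, which gives each spot a linear intensity with the array's own background and spatial trend removed (the processed signal). The deposited flags of 0 or 1 are other columns that mark outlier, saturated and well-above-background spots. A table of the authors' deposited values holds intensity as well, namely the processed signal multiplied by 1 factor per array (1.60, 1.41 and 1.80 for normal soleus, denervated soleus and plantaris); how that factor was set is not stated.

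Log2 processed signals were centred on each array's 75th percentile, spots with an outlier flag (467 to 569 per array) left out, and repeat spots averaged. A probe counted as well above background if at least 50 percent of its spots did, and the brightest probe stood for a gene. A gene entered a comparison if measured on at least 1 array, and a fold against an unmeasured array is a bound. Of the probes, 18005 carried a gene symbol through their accession (RefSeq table, GRCr8) and 12362 did not. Alternatives changed scaling, background (normexp in limma 3.58.1, offset 50, on the median spot signals, since the files hold no mean signal), probe choice, filters and fold size. The steps were run on simulated data with large planted shifts and less noise than repeat spots showed, which checks the code only. The text names all members and probes, up to 4 genes per list by size of difference, and the 3 nearest genes of each member. Beyond that rule, and with their values seen, Klhl40, Klhl41, Mb, Myh11, Myh2, Tagln, Tnnc2 and Tnnt1 were named for their roles or as the end of a range. Members, lists and tests were chosen with earlier results of these data known.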

Additional observations from a re-analysis of the deposited data

How the results depend on the processing

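With 1 array per group and 2 spots per probe, these values carry no spread between animals. The scanner error is only the signal error that the software assigns. Under the 13 other settings, 2 of which changed the fold size itself, 2 to 3 members were apart between the normal muscles, against 3 reported. After denervation 3 to 5 were, against 4, and between denervated soleus and plantaris 4 to 6, against 5. With 6 members such counts have little room to move, and they hide changes of membership. Against plantaris, quantile normalization kept 5 but with 2 higher and 3 lower, Mybpc1 standing at -0.75 and Tpm3 at 1.12. The median over members moved beyond the error as follows: -0.43 for plantaris against normal soleus under quantile normalization. For denervated against normal soleus it was -1.37 under quantile normalization, -1.36 with the authors' values, -1.97 with a mean over probes and -2.07 with the dimmest probe. For denervated soleus against plantaris it was -1.22, -1.76, -1.42 and -0.62 in that order, and -1.73 when centred on genes of like brightness, a setting added after seeing the data. Taking the dimmest probe turned Tpm1 to -0.12 in plantaris against normal soleus and to 0.42 in denervated soleus against plantaris. That setting reads the other, much fainter Tpm1 probe. Of all genes, 5.37%, 12.1% and 16.0% were at least 2-fold apart with normexp background in the 3 comparisons and 6.10%, 13.0% and 17.2% with no background correction, against 11.8%, 22.1% and 28.7%. No paired analysis was possible because each group has 1 array.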
